A study of Mus musculus with 12 samples.

Results

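The genes described here are those of the angiopoietin and Tie receptor system in mouse Lewis lung carcinoma (LLC) tumors: the receptor genes Tek (which encodes TIE2) and Tie1, the ligand genes Angpt1 and Angpt2, and the angiopoietin-like genes Angptl2 and Angptl4. They were chosen by name, as probe sets whose only gene symbol in the array's probe table is that of a member, and each gene was read from its probe set with the highest mean. Of the 6 genes named, 5 had such a probe set, out of 18193 genes in all, and Angptl2 was not analysed here. A filter on low values, which removed the lowest 30% of gene means (below a log2 intensity of 5.37), left 12735 genes to test, among them 3 of the members: Tek, Angpt2 and Angptl4. Tie1, with a mean of 5.05, and Angpt1, with a mean of 4.71, lay below that limit. Their changes come from the same model fitted to all 18193 genes.

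LLC, a mouse lung carcinoma line, was grown subcutaneously in C57BL/6 females of 6 to 8 weeks. Treatment was assigned at random once a tumor measured 60 to 80 mm3, and RNA was prepared from tumors of day 19. There were 4 groups of 3 tumors: control (antibody 13C4), 1D11 (antibody 1D11, which neutralizes TGF-beta), radiation (13C4 with radiation) and 1D11_radiation (1D11 with radiation). Every mouse thus received an antibody, and 13C4 is the isotype control of 1D11. The stated dose differs between labels, which give 5 fractions of 6 Gy under treatment but 2 Gy in the free-text descriptions. The material is named a tumor in one label and cells in another. All tumors come from a single carcinoma line in hosts that keep their own vessels and immune cells. The labels do not tie tumors to mice, so p-values measure only the spread between these samples.

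TIE2 is a receptor tyrosine kinase found mainly on endothelial cells. ANGPT1, made chiefly by perivascular and other mesenchymal cells, activates it and keeps vessels quiet. ANGPT2, made chiefly by endothelial cells at sites of vessel remodelling, can activate it or block ANGPT1, depending on context. TIE1 binds angiopoietins poorly by itself and modifies TIE2 signalling. ANGPTL2 and ANGPTL4 share the fibrinogen-like fold of the angiopoietins but do not act through TIE2. ANGPTL4 inhibits lipoprotein lipase and is a known target of PPARs and of hypoxia.

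The promoters of the 2 receptor genes are shown because both genes were lower in all irradiated tumors. The sequences are the 250 bases before each gene's start, written 5′ to 3′ on the gene's strand, from RefSeq on GRCm38.p6. Capitals mark the ETS core GGAA on either strand (TTCC on the opposite one), a motif bound by the ETS factors active in endothelial cells.
Tek, chr4:94739039-94739288, plus strand: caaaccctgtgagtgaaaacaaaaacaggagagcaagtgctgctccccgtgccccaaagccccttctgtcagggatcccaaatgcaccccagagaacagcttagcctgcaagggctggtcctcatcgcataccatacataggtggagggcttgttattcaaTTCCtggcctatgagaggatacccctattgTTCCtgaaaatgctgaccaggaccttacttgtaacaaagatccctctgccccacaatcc
Tie1, chr4:118489850-118490099, minus strand: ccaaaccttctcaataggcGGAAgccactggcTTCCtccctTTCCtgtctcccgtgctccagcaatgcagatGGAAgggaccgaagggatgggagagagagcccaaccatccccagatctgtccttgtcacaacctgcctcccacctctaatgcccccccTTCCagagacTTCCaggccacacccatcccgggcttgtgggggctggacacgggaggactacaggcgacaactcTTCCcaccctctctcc
The Tek window holds 2 matches to GGAA and the Tie1 window holds 7. Of 27025 promoter windows of this length in the table, 93.4% held at least 1 match, 76.9% held at least 2 and 3.8% held at least 7, with a median of 3. The Tek window also holds 2 matches to the E-box CANNTG, a number reached by 31.7% of all windows, and the Tie1 window holds 1; 66% of all windows hold at least 1. Neither window held the core HIF letters ACGTG, present in only 16.6% of all windows, or the SMAD box CAGAC, present in 42.1%. Of the 6 members, 3 were in the promoter table (Tek, Tie1 and Angptl2).

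Array medians ran from 62.3 to 66.1 intensity units, and log2 values correlated between arrays at 0.976 to 0.996. Genes that define endothelial cells were measured in every tumor: Pecam1 ran from 6.40 to 7.51 and Cdh5 from 6.74 to 8.03 on the log2 scale. Of 21 endothelial marker genes, 20 passed the filter. Skeletal muscle markers set 2 tumors apart. The mean centred log2 value of 14 muscle genes reached 1.06 in the tumor control replicate 1 and 2.05 in the tumor radiation replicate 3, while no other tumor exceeded 0.64, so results that rest on these tumors are given with and without them. Keratinocyte and mast cell markers were high in 1D11 tumors, the reference for 1D11_radiation against 1D11. The mean centred log2 value of 10 keratinocyte genes was 2.02 in 1D11 replicate 3 and 0.81 in 1D11 replicate 1, against -0.32 in 1D11 replicate 2 and -0.38 to -0.17 in the other groups. That of 8 mast cell genes was 0.92, 0.61 and 0.69 in the 1D11 tumors and at most 0.07 in the others, and its part in the results was not tested. In RNA of whole tumors, fewer endothelial cells and less RNA per endothelial cell cannot be told apart.

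Tek, the gene of the angiopoietin receptor TIE2, was lower after radiation, and by a similar amount under either antibody. Its log2 intensity was 5.87, 5.94 and 5.95 in control tumors and 5.07, 5.35 and 5.37 in radiation tumors. Under 1D11 it was 6.22, 5.82 and 5.80 without radiation and 5.01, 5.28 and 5.32 with it. All 6 irradiated tumors lay below all 6 unirradiated ones. The filter used the mean of all tumors, and Tek passed it through the unirradiated groups: the means of both irradiated groups lie below the limit of 5.37, so its changes are those of intensities near the low end of the signal. The order of group means was 1D11 (5.95), control (5.92), radiation (5.26) and 1D11_radiation (5.20), and within each of the pairs 1D11 and control, and radiation and 1D11_radiation, the values overlapped.

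In radiation against control tumors, Tek fell by 0.66 ± 0.13 on the log2 scale (SE, n = 3 per group), to 0.634 of its control level, with an adjusted p of 0.0270 (limma, Benjamini-Hochberg over all genes tested). In this comparison 2.39% of all genes tested were called, that is, had an adjusted p under 0.05, and 0.911% were called lower. Of the 3 tested members, Tek was called and Angpt2 and Angptl4 were not. The 2 groups did not overlap for Tek, which was so for 20.6% of all genes tested. The call did not hold without control replicate 2 (adjusted p 0.0633), control replicate 3 (0.0631), radiation replicate 1 (change -0.56, adjusted p 0.111) or radiation replicate 2 (0.0735). It held without both muscle-rich tumors, with a change of -0.74 and an adjusted p of 0.0381.

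Under 1D11, radiation lowered the mean of Tek to 0.597 of its 1D11 level, a change of -0.74 ± 0.13 with groups that did not overlap, as was so for 26.1% of genes. This change missed the threshold, with an adjusted p of 0.0568 in limma, in a comparison where 0.0785% of genes were called. The adjusted p was 0.0302 without control replicate 1, which is in neither group but enters the shared spread, and 0.0282 without both muscle-rich tumors. In these fits 227 and 419 of 12735 genes were called, against 10 with all tumors. 1D11 replicate 1, one of the 2 tumors with keratinocyte signal, has the highest Tek of all, and without it the change was -0.61 (adjusted p 0.126). Without 1D11 replicate 3 it was -0.82 (adjusted p 0.0906), and with the keratinocyte score as a covariate -0.76 (0.241). Over both antibodies together (6 against 6 tumors), Tek fell by 0.70 ± 0.09, with an adjusted p of 0.00305 (limma), and ranked 31st of 12735 genes by p. In that contrast 7.26% of all genes tested were called and 3.87% of all genes tested were called lower, and 2.41% had all irradiated tumors below all unirradiated ones. The call held in each of the 22 alternatives run for it that left Tek in the test, with adjusted p from 0.00121 to 0.0163. Without the filter, in the fit to all 18193 genes, the adjusted p of Tek was 0.0316 in radiation against control (limma). It was 0.0629 in 1D11_radiation against 1D11, 0.00317 over both antibodies and 0.0297 in 1D11_radiation against control (limma). Genes called in that fit were 1.37%, 0.0440%, 4.19% and 0.978% in the same order.

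1D11 did not move Tek past the spread. The difference of 1D11 from control was 0.03 ± 0.13 (95% confidence interval -0.25 to 0.31; adjusted p 0.936, limma), and that of 1D11_radiation from radiation was -0.06 ± 0.13 (interval -0.34 to 0.22; adjusted p 0.957). The interaction, the effect of radiation under 1D11 minus that under 13C4, was -0.09 ± 0.18 (interval -0.48 to 0.31; adjusted p 0.941). In 1D11 against control 0.0157% of genes were called, and in 1D11_radiation against radiation and the interaction 0% were. At an unadjusted p under 0.05, 14.1%, 5.4% and 7.48% of genes passed in these 3 contrasts. Over both radiation states, 1D11 changed Tek by -0.02 ± 0.09 (adjusted p 0.954), and none of the 3 tested members was called by limma in this contrast, in which 0.00785% of genes were called and 12.5% had an unadjusted p under 0.05. The combined treatment against control, which shares its control tumors with the first comparison, gave a change of -0.72 ± 0.13 (adjusted p 0.0265; 2.35% of genes called), and that call did not hold without any single 1D11_radiation tumor (adjusted p 0.0567 to 0.0746).

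Tie1, the gene of the partner receptor, had a low signal and was lower in the same 6 tumors. Its log2 intensity was 5.21, 5.45 and 5.39 in control tumors, and 5.5, 5.21 and 5.22 in 1D11 tumors. It was 4.79, 4.82 and 4.60 in radiation tumors, and 4.85, 4.79 and 4.78 in 1D11_radiation tumors. Again all irradiated tumors lay below all unirradiated ones, and the groups within an arm overlapped.

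With all 18193 genes tested, Tie1 fell by 0.62 ± 0.10 in radiation against control, to 0.652 of its control level (adjusted p 0.0163, limma), where 1.37% of genes were called. The call did not hold without radiation replicate 1 (adjusted p 0.0608) or radiation replicate 2 (0.0607), or with only these 2 groups fitted (0.0906), and it held without both muscle-rich tumors (change -0.62, adjusted p 0.0198). In 1D11_radiation against 1D11 the change was -0.50 ± 0.10 and missed the threshold (adjusted p 0.0770; 0.0440% of genes called). It passed without control replicate 1 (0.0407), and with the keratinocyte score as a covariate it was -0.51 (adjusted p 0.334). Over both antibodies Tie1 fell by 0.56 ± 0.07, with an adjusted p of 0.00296 in limma, and 4.19% of genes were called. It was also lower in 1D11_radiation than in control, with a change of -0.55 ± 0.10 (adjusted p 0.0312; 0.978% of genes called), a call lost without control replicate 2 or 3 or without any 1D11_radiation tumor (adjusted p 0.0614 to 0.106), and with the keratinocyte score as a covariate (0.0512). Of all genes with a probe set, 1.74% had all irradiated tumors below all unirradiated ones. The interaction for Tie1 was 0.11 ± 0.14 (interval -0.19 to 0.42; adjusted p 0.907, limma; 0% of genes called).

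**Figure D1:**
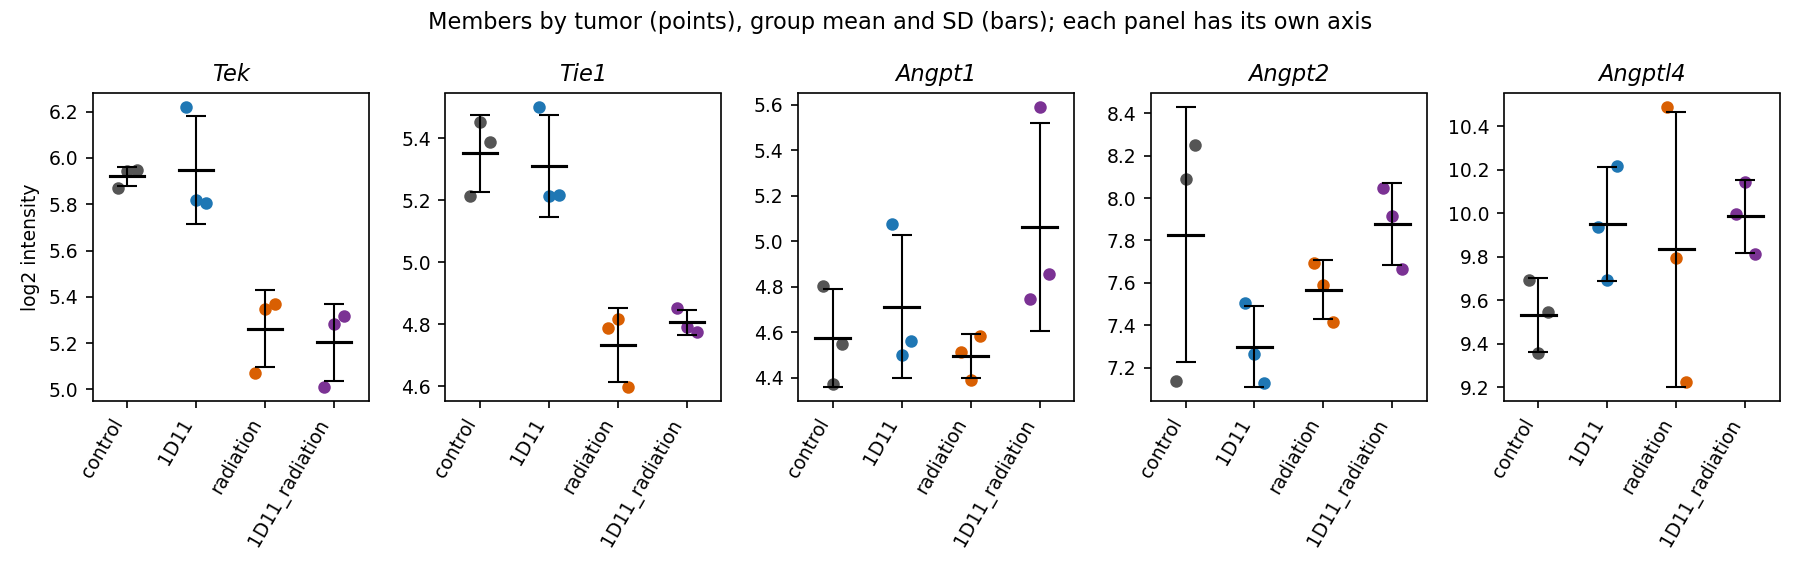
Log2 intensity (vertical axis, a separate scale per panel) of the 5 measured genes in each of the 12 tumors, by group; points are tumors, wide bars group means and thin bars 1 SD, with n = 3. All irradiated tumors lie below all unirradiated ones for Tek and Tie1, and these 2 sets of tumors overlap for Angpt1, Angpt2 and Angptl4.

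Angpt1, the gene of the activating ligand, was near the bottom of the signal range and was called in no contrast. Its log2 intensity was 4.80, 4.37 and 4.55 in control tumors and 5.07, 4.50 and 4.56 in 1D11 tumors. It was 4.51, 4.39 and 4.58 in radiation tumors and 4.75, 5.59 and 4.85 in 1D11_radiation tumors. The 3 tumors with both treatments were above the 3 radiation tumors, by 0.57 ± 0.21 in the fit to all genes, with an adjusted p of 0.881 (limma). In this comparison, over all genes with a probe set, 0% were called and 12.4% had groups that did not overlap. The highest value, 5.59, is that of 1D11_radiation replicate 2. The other Angpt1 probe set did not show this difference: its change between these groups was -0.09, and it read 4.49 in that tumor.

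Angpt2, the gene of the remodelling ligand, varied most among the control tumors and was called in no contrast over all tumors. It was 7.14, 8.09 and 8.25 in control tumors, a wide spread in which control replicate 1 was near the lowest of all 12. In 1D11 tumors it was 7.5, 7.26 and 7.13, in radiation tumors 7.69, 7.59 and 7.42, and in 1D11_radiation tumors 8.05, 7.92 and 7.67. The 3 tumors with both treatments lay above the 3 tumors with 1D11 alone, groups that did not overlap for 26.1% of all genes tested. Radiation and control tumors overlapped.

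Under 1D11, Angpt2 was 1.49 times as high with radiation as without, a log2 change of 0.58 ± 0.24 with an adjusted p of 0.272 (limma). With the keratinocyte score as a covariate it was 0.53 (adjusted p 0.615). Under 13C4 the change with radiation was -0.26 ± 0.24 (adjusted p 0.605). The interaction was 0.84 ± 0.34 (95% interval 0.09 to 1.58), with an unadjusted p of 0.0305 and an adjusted p of 0.616 in limma. 1D11 against control gave -0.53 ± 0.24 (adjusted p 0.351).

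These Angpt2 values depended on control replicate 1. Without it, 4 contrasts passed the threshold in limma: radiation against control became -0.60 (adjusted p 0.0449), 1D11 against control -0.87 (0.0487), 1D11_radiation against 1D11 stayed at 0.58 (0.0486), and the interaction became 1.18 (0.0474). Calls over all 12735 genes tested rose as well. In these 4 contrasts, in the same order, 436, 21, 227 and 21 genes were called without that tumor. With all tumors they were 304, 2, 10 and 0. Without both muscle-rich tumors, radiation against control was -0.53 (adjusted p 0.0724) and the interaction 1.11 (0.0624), while 1D11 against control, at -0.87 (0.0318), and 1D11_radiation against 1D11, at 0.58 (0.0390), were called. Of all 12735 genes tested, 59 were then called in 1D11 against control and 419 in 1D11_radiation against 1D11. With the muscle score as a covariate, radiation against control was 0.0025 and the interaction 0.43, with adjusted p of 0.998 and 0.835. In control replicate 1 the mean centred value of the endothelial markers was -0.14 (against 0.40 and 0.46 in the other control tumors), that of 16 hypoxia genes -0.50 (against 0.19 and 0.15), and that of pericyte and smooth muscle markers 0.87 (against 0.25 in both). Their part in the Angpt2 values was not tested. The other Angpt2 probe set was much weaker, with a mean of 4.51, and its interaction was 0.20.

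Angptl4, the gene of the lipoprotein lipase inhibitor, was called in no contrast. Its log2 intensity was 9.69, 9.36 and 9.55 in control tumors and 9.94, 9.69 and 10.22 in 1D11 tumors. In radiation tumors it was 10.49, 9.79 and 9.22, the widest spread of the 4 groups, and in 1D11_radiation tumors 9.997, 10.14 and 9.81. Each 1D11_radiation tumor lay above each control tumor, by a mean of 0.45 ± 0.26 (95% interval -0.11 to 1.02; adjusted p 0.332, limma), in a comparison where 26.7% of all genes tested had groups that did not overlap. The change with radiation was 0.30 ± 0.26 under 13C4 (adjusted p 0.569) and 0.04 ± 0.26 under 1D11 (adjusted p 0.966). The interaction was -0.27 ± 0.36 (interval -1.06 to 0.53; adjusted p 0.911). Without both muscle-rich tumors the change under 13C4 was 0.69 and was again not called (adjusted p 0.121).

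**Figure D2:**
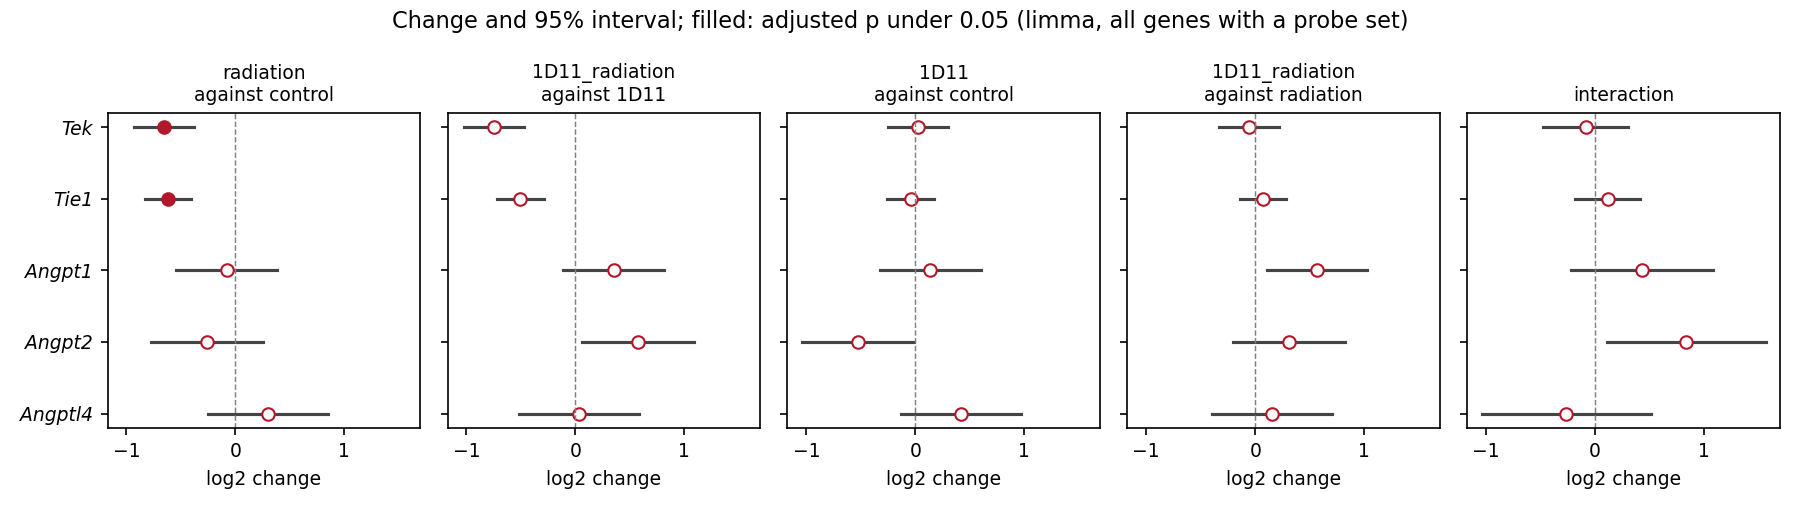
Log2 change (horizontal axis) of the 5 measured genes in 5 contrasts, from the fit to all 18193 genes; points are estimates, bars 95% confidence intervals, and filled points have an adjusted p under 0.05 (limma). In radiation against control the points of Tek, at -0.66, and Tie1, at -0.62, are the filled ones, and no other point shown is filled.

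Endothelial marker genes were lower after radiation under 13C4 as well, so the receptor genes were set beside them. Of the 20 endothelial genes tested, 5 were called lower in radiation against control and none higher. Of all genes tested, 0.911% were called lower in this comparison. The endothelial median change was -0.46 (from -1.41 to 0.00), against -0.002 over all genes tested. Called examples are Vwf, the gene of von Willebrand factor, at -1.41 ± 0.31 (adjusted p 0.0432, limma), the endothelial transcription factor gene Sox18 at -0.72 ± 0.14 (0.0291) and Egfl7, which encodes a secreted endothelial protein, at -0.50 ± 0.09 (0.0258). Of these 20 genes, 4 changed further downward than Tek did. Pericyte and smooth muscle markers were lower too: 4 of 10 tested were called lower, with a median of -0.63, among them Pdgfrb, the PDGF receptor of pericytes, at -2.05 ± 0.32, and Rgs5, a pericyte signalling regulator, at -1.21 ± 0.20 (adjusted p 0.0139 and 0.0188). TIE2 is also known on a subset of monocytes and macrophages. Of 12 macrophage markers, 3 were called higher and none lower here, where 2.39% of all genes tested were called. Under 1D11, 11 of the 12 were lower with radiation, with a median of -0.27 and 0 called, where 0.0785% of all genes were called. Over both antibodies 1 was called higher and 1 lower, where 7.26% of all genes were called.

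Under 1D11 the 20 endothelial genes had a median change of -0.13 with radiation (from -0.33 to 0.36; 0 called by limma, where 15.5% of all genes had an unadjusted p under 0.05). Tek at -0.74 and Tie1 at -0.50 lay below all 20, and Angpt2 at 0.58 lay above all 20. The value of Tie1 is from the fit to all genes. Tie1 lies below the filter that all 20 passed, and the endothelial marker below it was not compared. Of 10 pericyte and smooth muscle markers, 8 were lower and 2 higher in this comparison, with a median of -0.215 and 0 called. Among them Rgs5 was at -1.19 ± 0.20 (adjusted p 0.0568, limma). Of 12 fibroblast markers, 10 were lower and 2 higher, with a median of -0.41 and 0 called, among them Pdgfra at -0.85 ± 0.14 (adjusted p 0.0568, limma). For the interaction the median of the endothelial genes was 0.39, against -0.03 over all genes tested, and that of Tek was -0.09; no endothelial gene was called there. Summed intensities of the endothelial markers ran, on the log2 scale, from 11.84 to 12.36 in control, 11.85 to 12.08 in 1D11, 11.72 to 11.78 in radiation and 11.86 to 11.97 in 1D11_radiation tumors. Those of the pericyte and smooth muscle markers ran from 11.88 to 12.72, 11.77 to 11.92, 11.53 to 11.69 and 11.41 to 11.63 in the same order, and those of the macrophage markers from 14.52 to 14.90, 14.71 to 15.07, 14.71 to 14.83 and 14.52 to 14.89. The part of pericytes, smooth muscle, fibroblasts and macrophages in the receptor values was not tested, and a comparison with the endothelial markers of the same tumor follows below. Prox1, which defines lymphatic endothelium, was at most 4.04 in any tumor, below the filter.

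**Figure D3:**
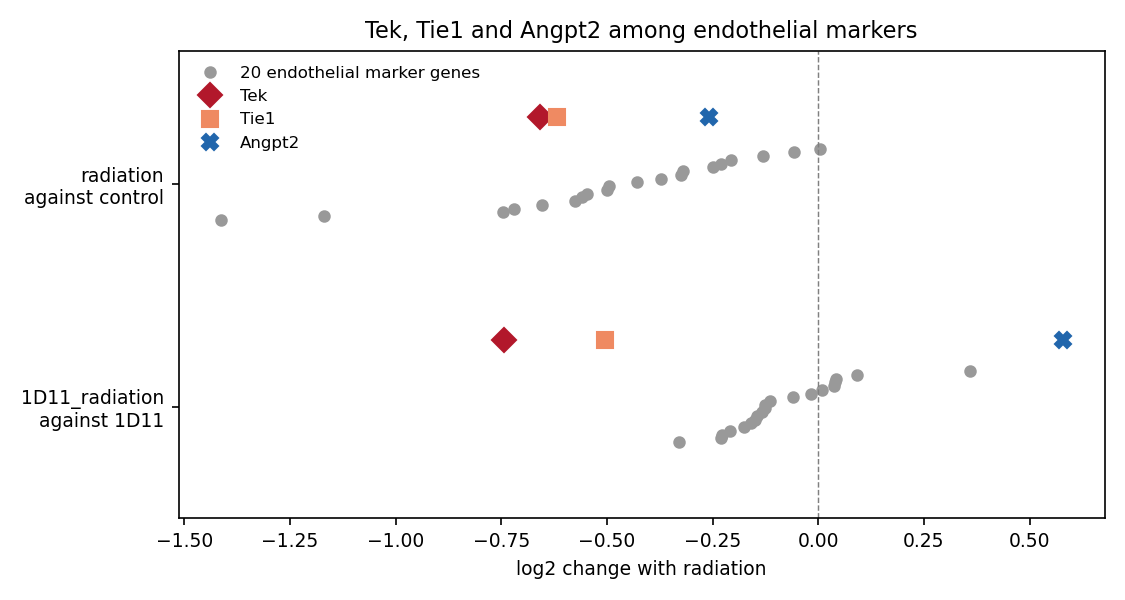
Log2 change with radiation (horizontal axis) under 13C4 (upper row) and under 1D11 (lower row); grey points are the 20 tested endothelial marker genes, spread vertically only for legibility, and coloured symbols are Tek, Tie1 (from the fit to all genes) and Angpt2. Under 1D11 the grey points run from -0.33 to 0.36, with Tek and Tie1 to their left and Angpt2 to their right.

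The difference between a member and the endothelial markers of the same tumor was then tested over tumors. For each tumor, the mean centred log2 value of the 21 endothelial genes was subtracted from the centred value of the member, and radiation labels were permuted within each antibody (an exact two-sided permutation test of 400 arrangements, with 10 tests adjusted together). The mean difference of irradiated from unirradiated tumors was -0.41 for Tek (p 0.030), -0.27 for Tie1 (p 0.025) and 0.45 for Angpt2 (p 0.015), each with an adjusted p of 0.10, so none passed the adjustment in this exact permutation test. With the median of the endothelial list in place of the mean, Tek (-0.47) and Tie1 (-0.33) passed, both with an adjusted p of 0.025. Angpt1 differed by 0.43 and Angptl4 by 0.46, with adjusted p of 0.163 and 0.183 in the same exact permutation test. For 1D11 the same differences ran from -0.12 for Angpt2 to 0.35 for Angpt1, with adjusted p of 0.183 or more (exact permutation test).

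Per tumor, the value of Tek relative to the endothelial markers was 0.42, -0.04 and -0.10 in control and 0.47, 0.31 and 0.16 in 1D11 tumors. It was -0.28, 0.01 and 0.04 in radiation and -0.48, -0.34 and -0.19 in 1D11_radiation tumors. The control and radiation tumors overlapped on this measure, and the 1D11 and 1D11_radiation tumors did not. That of Angpt2 was -0.31, -0.30 and -0.58 in 1D11 and 0.50, 0.24 and 0.10 in 1D11_radiation tumors, again without overlap. The share of all genes without overlap was not computed on this measure. On plain log2 values it was 26.1% of genes tested between the 1D11 and 1D11_radiation tumors, so such a gap is common.

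Of 25 partners and signalling genes of TIE2, all tested, 2 were called lower and none higher over both antibodies, where 7.26% of all genes tested were called, so the count is near the background. They were Mmp14, a membrane protease that can shed the TIE2 ectodomain, at -0.22 ± 0.05 (adjusted p 0.0238, limma), and Klf2, an endothelial transcription factor, at -0.66 ± 0.16 (0.0347). The median of the list was 0.01, against -0.01 over all genes tested. Ptprb, the phosphatase VE-PTP that restrains TIE2, was at -0.34 ± 0.15 (adjusted p 0.189), and Foxo1, a transcription factor that TIE2 signalling holds inactive and that drives Angpt2, was at -0.10 ± 0.06 (0.380). No gene of this list was called in any other contrast by limma.

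Among other angiopoietin-like genes, 3 of 6 were tested, and 1 was called over both antibodies, where 7.26% of all genes tested were called. It was Angptl7, higher by 0.78 ± 0.20 (adjusted p 0.0365, limma), with 0.84 ± 0.28 under 13C4 and 0.72 ± 0.28 under 1D11, neither called alone. Angpt4 and Angptl8 lay below the filter. Of 12 tested genes around ANGPTL2 and ANGPTL4 receptors and the lipase axis, 1 was called higher and 1 lower over both antibodies, against the same 7.26%. Vldlr, a lipoprotein receptor, was higher, at 1.10 ± 0.23 (adjusted p 0.0191, limma). Pcsk6, a protease of the convertase family, was lower, at -0.39 ± 0.09 (adjusted p 0.0224, limma). Lpl, the lipase that ANGPTL4 inhibits, was at -0.06 ± 0.46 (adjusted p 0.961), and Gpihbp1, its anchor on capillaries, at -0.49 ± 0.26 (0.279). The median of that list was -0.04. None of 7 tested PPAR target genes was called in limma, where 24.3% of all genes had an unadjusted p under 0.05; the one with the smallest p was Cd36, a fatty acid transporter, at -0.53 ± 0.17 (adjusted p 0.0846).

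Hypoxia and HIF target genes, a list that includes regulators of Angptl4 and of vessel growth, were mostly higher over both antibodies. Of 16 tested members, 14 were higher and 2 lower, with a median of 0.36. Called higher were 6 and called lower none, where 3.39% of all genes tested were called higher. Pgk1, a glycolytic enzyme, rose by 0.30 ± 0.06 (adjusted p 0.0111, limma), P4ha2, a collagen prolyl hydroxylase, by 0.62 ± 0.14 (0.0238), Ldha, the gene of lactate dehydrogenase A, by 0.18 ± 0.04 (0.0260), Adm, the gene of adrenomedullin, by 0.94 ± 0.23 (0.0327) and Vegfa, the main endothelial growth factor, by 0.62 ± 0.16 (0.0446). No member of this list was called in radiation against control (median 0.20) or in 1D11_radiation against 1D11 (median 0.54). The mean centred value of the 16 genes was -0.498, 0.185 and 0.155 in control and -0.355, -0.342 and -0.236 in 1D11 tumors. It was 0.319, 0.177 and -0.022 in radiation and 0.198, 0.134 and 0.285 in 1D11_radiation tumors. The lowest value is that of the muscle-rich control replicate 1, and the calls of this list are given only with that tumor included. Of 13 tested TGF-beta target genes, 1 was called lower over both antibodies and none higher. In that contrast 7.26% of all genes tested were called, so the count is near the background. It was Pmepa1, a feedback inhibitor of the pathway, at -1.11 ± 0.20 (adjusted p 0.0101, limma). Pmepa1 was also called lower in the combined treatment against control, at -1.84 ± 0.28 (adjusted p 0.0164, limma), where 2.35% of genes were called. The median of that list in 1D11 against control was -0.26, with 0 called.

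The genes whose values tracked each member most closely over the 12 tumors were found by Pearson's r across all tested genes, as a description without a test. The points share an array, and for both receptors they fall into an irradiated and an unirradiated cluster. For Tek they were Osr2 (r 0.934, and 0.431 after removal of group means), Spin1 (0.930 and 0.977), Ppp2r3d (0.923), Hic1 (0.920) and Fam122b (0.916). Osr2, a mesenchymal transcription factor, fell by 1.72 ± 0.14 over both antibodies (adjusted p 0.000475, limma), and its irradiated tumors (5.26 to 6.05) did not overlap the unirradiated ones (7.12 to 7.67). Of all genes tested, 7.26% were called there, and 2.41% had all irradiated tumors below all unirradiated ones. Osr2 was picked by its r to Tek, which separates the same tumors, so these values are not independent of that choice. For Tie1 they were Socs6 (0.95), Plekhh3 (0.945), Bnc1 (0.929), Cd164 (0.926) and Msi2 (0.924). No pooled correlation among members is given with Tek or Tie1, because of these clusters. Within the 6 unirradiated tumors Tek and Tie1 correlated at r 0.852 and rho 0.714 (exact permutation p 0.0167 and 0.136, adjusted over 20 relations 0.334 and 0.389), and at r 0.911 without the 2 tumors farthest from the median of Tek. Within the 6 irradiated ones the values were -0.552 and -0.600 (exact permutation p 0.260 and 0.242, adjusted 0.519 and 0.483).

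For Angpt2 the closest genes included 2 of the VEGF system. They were Esm1, an endothelial proteoglycan gene of sprouting vessels (r 0.931, and 0.953 after removal of group means), 4930447F24Rik (0.894), Flt1, the gene of VEGF receptor 1 (0.866), Pgf, the gene of placental growth factor (0.861), and Ifitm1 (0.848). Esm1 was 5.35, 8.75 and 8.46 in control tumors, and control replicate 1 was the lowest of all 12. It was 6.64, 5.53 and 5.54 in 1D11 tumors, 7.33, 6.67 and 6.86 in radiation tumors, and 7.32, 7.30 and 6.60 in 1D11_radiation tumors. Its interaction was 1.74 ± 1.01 (adjusted p 0.771, limma), that of Flt1 0.59 ± 0.18 (0.439) and that of Pgf 1.19 ± 0.55 (0.671). For Angptl4 the closest genes were Whamm and Mical2 (both 0.929), Malt1 (0.898), Alg13 (0.888) and Csf2rb2 (0.881), and for Angpt1 they were Chrac1 (0.905), Zfp580 (0.898), Ext1 (0.888), Mbip (0.864) and Inpp5a (0.856).

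**Figure D4:**
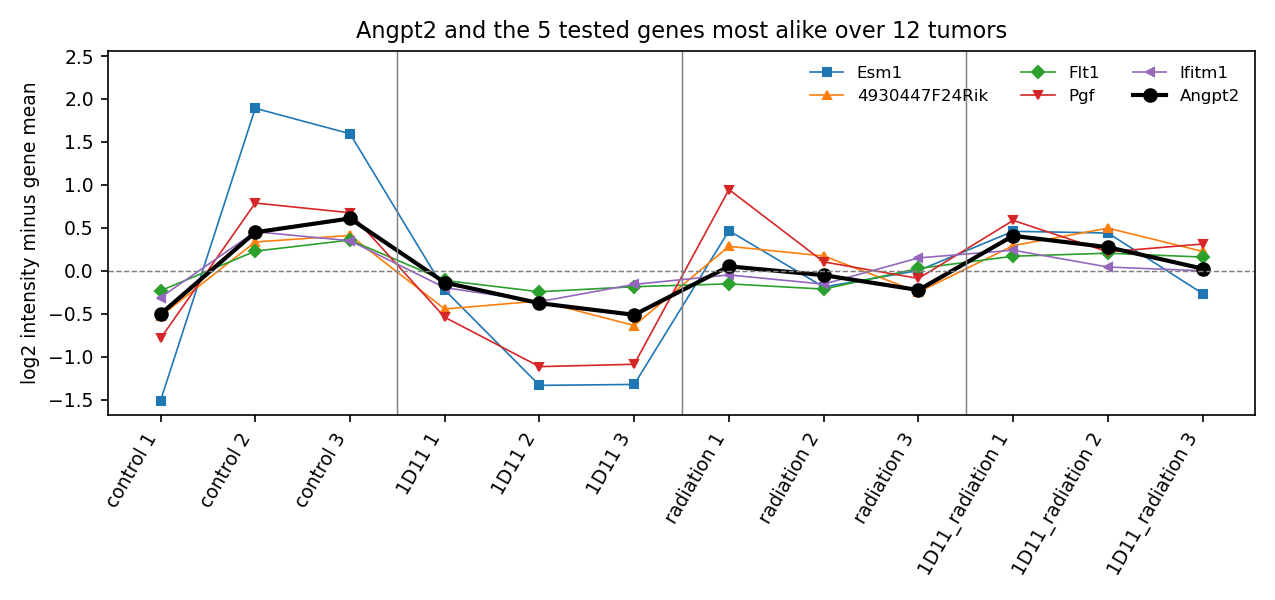
Log2 intensity minus the gene's mean over the 12 tumors (vertical axis) for Angpt2 (thick black) and the 5 tested genes with the highest r to it, in each tumor (horizontal axis, groups separated by vertical lines). Control replicates 2 and 3 are high and control replicate 1 is low for all 6 genes shown; for Esm1 the values are 1.89, 1.6 and -1.51. Lines join tumors only to guide the eye.

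The balance of the 2 ligands was described without a test. Angpt2 minus Angpt1, each centred over the 12 tumors, was -0.60, 0.79 and 0.77 in control, -0.50, -0.17 and -0.36 in 1D11, 0.25, 0.27 and -0.10 in radiation, and 0.37, -0.60 and -0.12 in 1D11_radiation tumors. The group means ran from -0.34 ± 0.17 in 1D11 to 0.32 ± 0.79 in control (SD, n = 3). The control spread rests on control replicate 1: the other control tumors lie above all tumors of the other 3 groups. The 1D11 and radiation tumors do not overlap, and the 1D11_radiation tumors overlap both. How often such differences between other genes fail to overlap was not computed. The overlap with 1D11 rests on 1D11_radiation replicate 2, at -0.60. In that tumor Angpt1 read 5.59 on the probe set used and 4.49 on the other. Both Angpt1 probe sets lie near the bottom of the signal range, and the balance was not computed with the other one.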

How the data were processed

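RNA of 12 tumors was hybridized to Affymetrix arrays of 45101 probe sets, with biotin-labelled cRNA, per the labels' protocols. The deposited values are linear intensities per probe set, already on a common scale; background correction, summary and normalization: not given in the sources used here. They were taken to log2. A gene was read from its single-symbol probe set with the highest mean. The model was limma 3.58.1 (R 4.3.3), lmFit and eBayes with 1 mean per group over 12 arrays, 8 contrasts, two-sided tests and Benjamini-Hochberg adjustment over all genes tested; adjusted p under 0.05 is called. Scripts were tested on simulated data. Permutations and correlations used Python 3.11.15 with scipy 1.17.1. Array number, 3 per group, limits the precision.

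Named were the members in every contrast, the 5 tested genes with the highest r to each, and from each list up to 4 called genes with the smallest p, or the 1 with the smallest p. Pecam1, Cdh5, Prox1, Ptprb, Foxo1, Lpl, Gpihbp1, Vegfa, Angpt4 and Angptl8 were taken from the lists outside this rule, after their values were seen. Cdh5 and Nos3, 2 endothelial markers, also stand in other lists. Members and lists were chosen with earlier results of these data known. Same-numbered replicates did not pair: deviations correlated at -0.31 to 0.27, and 3 of 18 pairs were over 0.1. Correlations within the irradiated and unirradiated tumors were added after seeing the data. Alternatives covered filter, probe set choice, offset, normalization, moderation, array weights, marker covariates, replicate block and tumors left out.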

Additional observations from a re-analysis of the deposited data

Results flagged for a closer look

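For each of the 5 measured genes, the 6 irradiated, 6 unirradiated, 6 1D11-treated and 6 13C4-treated tumors, 20 arms in all, were checked for a single tumor far from the others, and 2 stood out. Chance alone marks about 1 arm in 20. For Tek, 1D11 replicate 1 was the highest unirradiated tumor at 6.218, and its gap to the next, 5.946, was 0.657 of the range of that arm, above the critical 0.625. For Tie1, radiation replicate 3 was the lowest irradiated tumor at 4.598, and its gap to the next, 4.776, was 0.703 of the range; this is also the tumor with the most skeletal muscle signal. Without these tumors, Tek and Tie1 kept their calls over both antibodies.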

How the results depend on the processing

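Over both antibodies, Tek and Tie1 kept direction and call under every alternative that tested them. Number of members called, against 1 in radiation against control: 2 without the filter (Tek and Tie1), and 0 with the lowest 50% of genes not tested (Tek is then untested), with the replicate block and with only the 2 groups fitted, and 0 to 2 with a tumor left out. Of all 12735 genes tested, 304 were called there in the main fit. The named settings, in order, called 250 of 18193, 372 of 9097, 206 of 12735 and 6 of 12735, and tumors left out 20 to 436. Against 1 in 1D11_radiation against control, the same settings gave 2, 0, 0 and 0, and tumors left out 0 to 1. Genes called in that comparison were 299 in the main fit, and 178, 370, 85 and 1 under those settings. Against 1 over both antibodies, the filter settings gave 2 and 0, where 763 and 1010 genes were called, against 925 in the main fit. Against 0 in 1D11_radiation against 1D11, the mean of probe sets, an offset of 32, trend and robust moderation, and array weights each gave 1, omission of both muscle-rich tumors gave 2, and tumors left out 0 to 2. Calls over all genes moved too, from 10 of 12735 in the main fit. They were 35, 49, 63, 1491 and 419 under the named settings, in the same order. Against 0 in 1D11 against control, omission of both muscle-rich tumors gave 1 and tumors left out 0 to 1; the interaction gave 0 to 1. In 1D11 against control 2 genes were called in the main fit and 59 without both muscle-rich tumors. For the interaction 0 genes were called in the main fit and 21 without control replicate 1. Relative to endothelial markers, 0 members became 2 with the list's median.

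The replicate block took Tek to an adjusted p of 0.0544 in radiation against control and 0.0576 in 1D11_radiation against control, and Tie1 to 0.0668 in the latter; replicate numbers do not pair these tumors. With only the groups compared these were 0.0822, 0.0725 and 0.0861, and Tie1 in radiation against control was 0.0906. With the keratinocyte score as a covariate Tie1 in 1D11_radiation against control was 0.0512.

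Without both muscle-rich tumors, Angptl4 was 0.69 in radiation against control and -0.65 in the interaction. Changes that crossed 0 were uncalled, and the cause was not tested. With the muscle score as a covariate Angpt2 was 0.0025 in radiation against control, -0.018 in 1D11_radiation against radiation and -0.015 in 1D11_radiation against control; Angptl4 was -0.021 in 1D11_radiation against 1D11; Tie1 was -0.044 in 1D11_radiation against radiation, -0.030 for the 1D11 main effect and -0.028 in the interaction. With array weights Angptl4 was -0.016 in 1D11_radiation against 1D11 and -0.041 in 1D11_radiation against radiation, Tek -0.020 in 1D11 against control, Angpt2 -0.26 in 1D11_radiation against control and Tie1 -0.034 for the 1D11 main effect. Quantile normalization gave Tie1 0.0024 in 1D11 against control, Tek 0.0019 for the 1D11 main effect and Angpt2 -0.011 in 1D11_radiation against control, and the mean of probe sets gave Angpt2 -0.024 there. Omission of both muscle-rich tumors gave Angptl4 -0.15 in 1D11_radiation against radiation, Angpt2 -0.29 in 1D11_radiation against control and Tie1 -0.054 for the 1D11 main effect. Leave-one-out ranges were, in radiation against control, -0.024 to 0.61 for Angptl4 and -0.18 to 0.034 for Angpt1; in 1D11_radiation against 1D11, -0.092 to 0.17 for Angptl4; in 1D11 against control, -0.11 to 0.099 for Tek, -0.14 to 0.0087 for Tie1 and -0.045 to 0.25 for Angpt1; in 1D11_radiation against radiation, -0.16 to 0.037 for Tek and -0.15 to 0.48 for Angptl4; in 1D11_radiation against control, -0.29 to 0.26 for Angpt2; for the radiation main effect, -0.013 to 0.27 for Angpt2; for the 1D11 main effect, -0.084 to 0.032 for Tek and -0.032 to 0.040 for Tie1; in the interaction, -0.18 to 0.049 for Tek and -0.57 to 0.061 for Angptl4; and relative to endothelial markers for 1D11, -0.074 to 0.059 for Tek and -0.037 to 0.068 for Tie1.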
